A study of Rattus norvegicus with 11 samples.

Results

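The miR-26 family was examined in isolated pancreatic islets of Sprague-Dawley rats at 2 ages. Its members were all rows of the deposited count table whose name starts with miR-26a or miR-26b and that were counted on the sense strand, which gave 4 mature arms out of 898 features in all: miR-26a-5p, miR-26a-3p, miR-26b-5p and miR-26b-3p. Islets are small endocrine bodies scattered through the pancreas, and most of their cells are beta cells, which secrete insulin. Small RNA libraries came from 10-day-old pups (P10, 5 libraries) and from 3-month-old males (adult, 6 libraries), both described as control animals and called biological replicates in the labels. Whether animals were pooled for a library is not stated, and sex is labelled for adults only, so age and sex cannot be told apart.

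miR-26 is a broadly expressed vertebrate miRNA family whose genes lie inside introns of the Ctdsp genes, which encode small phosphatases of the RNA polymerase tail. A hairpin precursor is cut into a 5p and a 3p arm, and in this family the 5p arm is the guide that pairs with target mRNAs, while the 3p arm is mostly discarded. Known targets of miR-26 include mRNAs of the chromatin regulators Ezh2 and the Tet dioxygenases, and in beta cells miR-26 was among the miRNAs linked to keeping insulin expression on. In the RefSeq table (GRCr8), Mir26a lies within Ctdspl and Mir26b within Ctdsp1. In mouse and human a further miR-26a gene, in Ctdsp2, gives the same 5p arm, so the miR-26a values below are those of the chromosome 8 row.

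The mature sequences are shown because they define which reads and which targets the paralogs can share. They are from RefSeq (GRCr8), 5′ to 3′, with the seed, bases 2 to 8, in capitals.
miR-26a-5p: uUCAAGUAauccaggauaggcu
miR-26b-5p: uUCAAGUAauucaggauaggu
miR-26a-3p: cCUAUUCUugguuacuugcac
miR-26b-3p: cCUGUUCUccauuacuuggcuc
Both 5p arms carry the seed UCAAGUA, and these 2 are the only ones of 724 mature entries in that table that do. Counted from 1 at the 5′ end, miR-26b-5p differs from miR-26a-5p by C11U and C21U and is 1 base shorter, 21 against 22 bases, so 19 of 21 compared positions are identical. The 3p arms are less alike, with 14 of 21 positions identical when aligned from their first base, and the change A4G falls within the seed and gives each its own.

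The hairpins place the arms, shown here in capitals, on either side of the loop.
Mir26a: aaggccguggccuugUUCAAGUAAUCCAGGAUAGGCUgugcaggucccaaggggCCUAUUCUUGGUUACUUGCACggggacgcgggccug
Mir26b: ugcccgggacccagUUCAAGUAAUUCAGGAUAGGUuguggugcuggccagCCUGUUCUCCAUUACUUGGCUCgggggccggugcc
In the deposited table (Rnor_5.0, plus strand) miR-26a-5p is at chromosome 8, 126931607 to 126931628, and miR-26a-3p at 126931646 to 126931666. miR-26b-5p is at chromosome 9, 81439838 to 81439858, and miR-26b-3p at 81439874 to 81439895. The 3p arm starts 39 bases after the 5p arm in miR-26a and 36 bases after it in miR-26b, the same distances as in the RefSeq hairpins. Each arm occupies a single row, with no antisense row for the family.

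The libraries held 1430412 to 4468745 counts over these features, and levels are given as CPM, counts scaled to a common library size, adjusted with the TMM factors of edgeR, which correct for library composition. As the background of the marker counts that follow, 21.2% of the 457 tested features were higher and 29.5% lower in adults (edgeR adjusted p below 0.05). As a check of the tissue, islet endocrine markers (miR-375, miR-7, miR-153 and miR-204) summed to between 116237 and 168834 CPM at P10 and between 257913 and 330140 CPM in adults, with 7 of 10 tested arms higher in adults, among them miR-375-3p (2.01-fold) and miR-204-5p (1.43-fold). Mesenchymal markers (miR-143, miR-145 and miR-199a) summed to between 33256 and 61145 CPM at P10 and between 17177 and 58305 CPM in adults, with 4 of 6 lower in adults; miR-199a-3p stood at 0.206 of its P10 level, and the most abundant, miR-143-3p, did not pass (edgeR adjusted p = 0.174). Leukocyte markers (miR-142, miR-150, miR-155 and miR-223) summed to between 681.2 and 1427 CPM at P10 and between 249.0 and 832.5 CPM in adults, with 1 of 4 lower, miR-150-5p at 0.358 of its P10 level (edgeR adjusted p = 0.00156), while miR-142-5p did not pass (edgeR adjusted p = 0.162). Nor did miR-155-5p (0.782 of its P10 level, edgeR adjusted p = 0.255) or miR-223-3p, which leaned the other way (1.65-fold higher, edgeR adjusted p = 0.101). Acinar markers summed to between 22.2 and 37.7 CPM at P10 and between 28.6 and 127.1 CPM in adults, with 2 of 3 higher, miR-217-5p by 3.897-fold (edgeR adjusted p = 0.000805) and miR-216a-5p by 2.56-fold (edgeR adjusted p = 0.0259). Neither tested erythroid arm (miR-451-5p and miR-144-5p, summed with the rest of that list to at most 72.3 CPM) passed, nor did the 1 tested neuronal and glial arm (miR-219-1-3p, with a list sum of at most 14.6 CPM). The 1 striated muscle marker present, miR-133b-3p, reached at most 1.53 CPM in any library. The endothelial miR-126 and the hepatocyte miR-122 were not analysed here. In bulk islets, fewer cells of a type and less RNA per cell cannot be told apart.

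Both guide arms, miR-26a-5p and miR-26b-5p, were higher in adult islets, by 1.30-fold and 1.59-fold, while neither 3p arm passed a test of the difference. Of the 4 arms, 3 passed the abundance filter and were tested; miR-26a-3p did not. The background was high: 50.8% of the 457 tested features differed between the ages 21.2% being higher and 29.5% lower in adults (edgeR's quasi-likelihood test, adjusted p below 0.05). The changes of both guide arms were below the median of 0.85 on the log2 scale among features called higher.

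miR-26a-5p, the more abundant paralog, stood at 4805, 5446, 6442, 6660 and 7016 CPM in the P10 libraries (replicates 1, 3, 4, 5 and 6). In adults it stood at 7985, 9360, 8252, 7067, 7718 and 7131 CPM (replicates 1 to 6). Every adult library was above every P10 library, but the margin was narrow, with 7067 CPM in the lowest adult and 7016 CPM in the highest P10 library. CPM ranges of the ages did not overlap for 30% of tested features. The P10 mean of 6074 CPM (SD 918, n = 5) compared with 7919 CPM in adults (SD 846, n = 6), a log2 change of 0.38 ± 0.12 (SE; edgeR adjusted p = 0.0151). Within each library it ranked between 23rd and 25th by count at P10 and between 16th and 19th in adults.

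miR-26b-5p, which shares the seed, stood at 1183, 1498, 1854, 1690 and 2370 CPM at P10 and at 2242, 3667, 2328, 2657, 2953 and 2556 CPM in adults, in the same order of replicates. The ages overlapped only through P10 replicate 6, which lay above adult replicates 1 and 3. Its P10 mean of 1719 CPM (SD 441, n = 5) compared with 2734 CPM in adults (SD 522, n = 6), a log2 change of 0.67 ± 0.17 (SE; edgeR adjusted p = 0.00601). For both arms P10 replicates 1 and 3 were the lowest of all 11 libraries, and without this pair, an alternative chosen after seeing the data, the log2 changes were 0.33 (edgeR adjusted p = 0.0191) and 0.56 (edgeR adjusted p = 0.0282). The islet endocrine sum was lowest in P10 replicate 3 (116237 CPM), while P10 replicate 1 (143811 CPM) was in the middle of its age. The mesenchymal sum was the highest of its age in replicate 3 (61145 CPM) and the lowest in replicate 1 (33256 CPM). That sum was mostly miR-143-3p (P10 mean 41024.5 CPM, SD 11398.5). The next arm of the list, miR-199a-3p, varied little among the P10 libraries (mean 1237 CPM, SD 59.6), so the sum mainly follows 1 arm. The part of any of these marker groups in the miR-26 change was not tested.

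**Figure D1:**
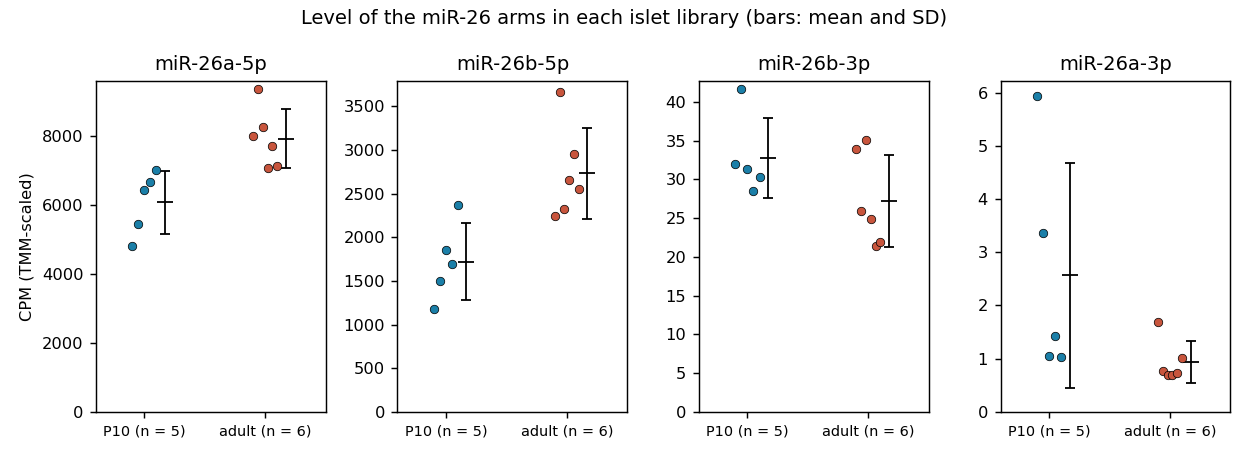
Level of each miR-26 arm (y axis, CPM scaled by TMM factors, from 0) in the 5 P10 and 6 adult libraries. Points are libraries and bars the mean and SD; miR-26a-5p lies between 4805 and 7016 CPM at P10 and between 7067 and 9360 CPM in adults, and the 3p arms reach at most 41.7 CPM.

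The rise of the guide arms depended on how libraries were put on a common scale. As a plain share of all counts, miR-26a-5p took 0.672% ± 0.117 at P10 (SD, n = 5) and 0.730% ± 0.0923 in adults (SD, n = 6), and miR-26b-5p 0.190% ± 0.0480 and 0.254% ± 0.0592; in both cases the ages overlapped. When library totals alone set the scale, the log2 change was 0.12 for miR-26a-5p (edgeR adjusted p = 0.457) and 0.42 for miR-26b-5p (edgeR adjusted p = 0.0716), and neither passed. That scaling moved the median feature by -0.27 on the log2 scale, and the split of all calls went from 97 higher and 135 lower to 54 higher and 187 lower. With upper-quartile scaling the median moved by 0.16, the split was 127 higher and 103 lower, and both arms passed (0.54 and 0.82). With DESeq2's size factors it was 121 higher and 114 lower, and both passed (0.47 and 0.77). The most abundant feature, miR-375-3p, an islet endocrine marker, went from 143152 to 287885 CPM. With it left out of the TMM scaling the arms were at 0.38 and 0.68. TMM already trims the most abundant features, so that setting could hardly differ and does not test the part of miR-375-3p.

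**Figure D2:**
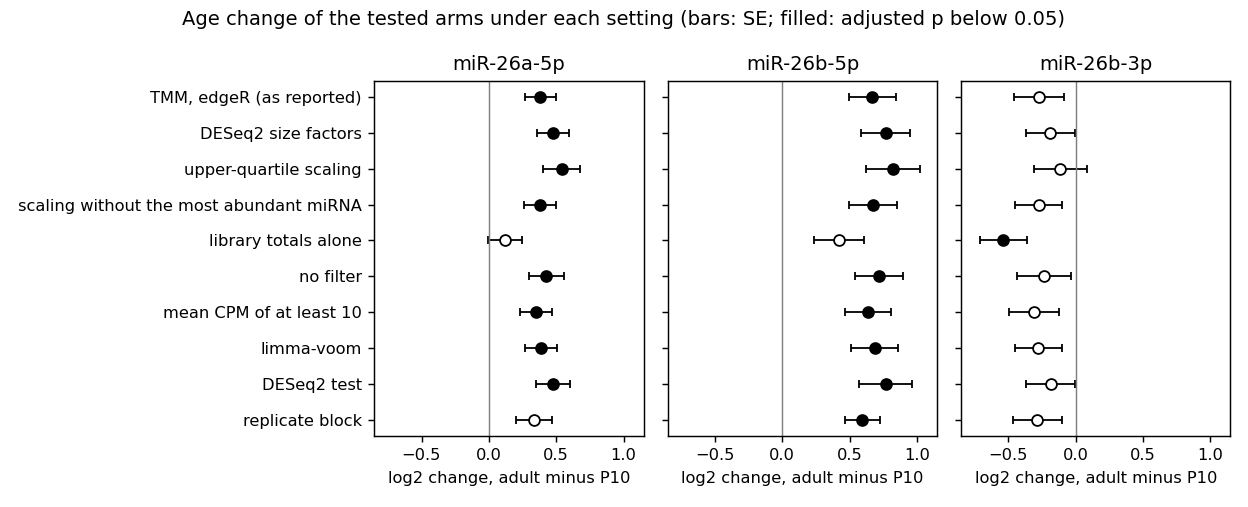
Log2 change from P10 to adult (x axis, with SE bars) of the 3 tested miR-26 arms under 10 settings (y axis). Filled points have an adjusted p below 0.05: the guide arms lie right of 0 throughout, and both miss the threshold with library totals alone.

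Together the 4 arms took 0.866% ± 0.159 of all counts at P10 (SD, n = 5, from 0.652% to 1.01%) and 0.987% ± 0.145 in adults (SD, n = 6, from 0.847% to 1.26%). Within the family miR-26a-5p held 77.8% ± 2.10 of the counts at P10 and 74.2% ± 2.80 in adults, and miR-26b-5p 21.7% ± 2.18 and 25.5% ± 2.86. Both 3p arms together held from 0.205% to 0.644%. These shares and the paralog ratio use the named rows alone. An unnamed chromosome 7 feature described further on had 5.79 to 7.30 times the counts of miR-26a-5p. If it holds miR-26a reads, the family share and the balance of the paralogs would differ several-fold from those given. The change of miR-26a-5p with age could differ too, since the log2 change of that feature was 0.26 (edgeR adjusted p = 0.0905). None of this was tested. Adapter ligation favours some sequences over others, so shares of different arms within a library are less certain than a single arm between libraries.

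**Figure D3:**
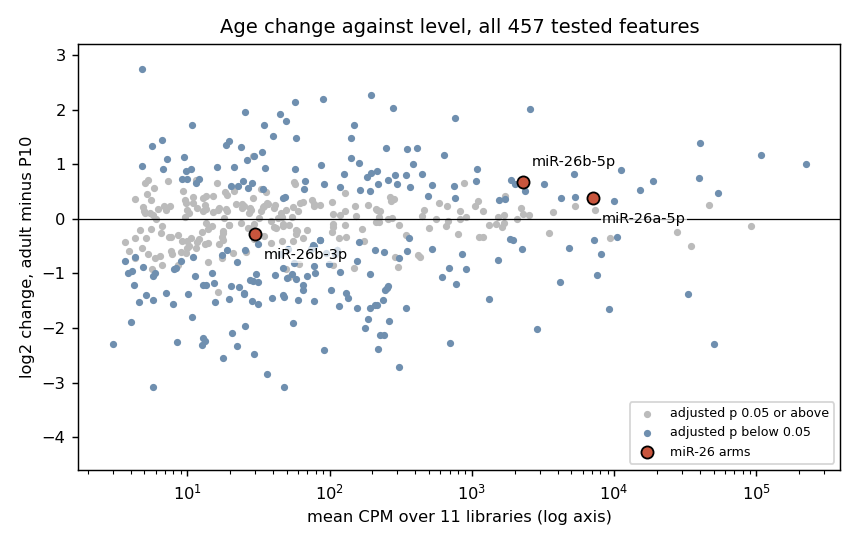
Log2 change from P10 to adult (y axis) against mean CPM over the 11 libraries (x axis, log scale) for the 457 tested features, with the miR-26 arms in red. The guide arms are among the abundant features, at 7080 and 2272 CPM, with changes of 0.38 and 0.67 amid features that change more.

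The balance between the paralogs was shifted toward miR-26b in most adult libraries, but the difference did not pass after adjustment. The ratio of miR-26b-5p to miR-26a-5p counts, which no library scaling affects, was 0.246, 0.275, 0.288, 0.254 and 0.338 at P10 (replicates 1, 3, 4, 5 and 6) and 0.281, 0.392, 0.282, 0.376, 0.383 and 0.358 in adults (replicates 1 to 6). In 4 of 6 adult libraries it exceeded every P10 library, and adult replicates 1 and 3 lay within the P10 range. The mean log2 ratio was -1.85 ± 0.180 (SD, n = 5) at P10 and -1.55 ± 0.222 (SD, n = 6) in adults, a difference of 0.30 (exact permutation of the ages over all 462 splits, two-sided, p = 0.0411, or 0.0823 when adjusted over the 2 paralog ratios). It passed without P10 replicate 6 (0.37, exact permutation, adjusted p = 0.0381), adult replicate 1 (0.35, adjusted p = 0.0476) or adult replicate 3 (0.35, adjusted p = 0.0476). It did not pass without any other single library, with adjusted p from 0.0524 without P10 replicate 4 to 0.152 without P10 replicate 1 (exact permutation).

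The 3p arms were rare and had lower means in adults, but with TMM scaling neither passed a test of the difference. miR-26b-3p was at 32.0, 41.7, 31.4, 28.5 and 30.4 CPM at P10 and at 33.9, 25.97, 35.1, 24.9, 21.4 and 21.95 CPM in adults, on 36 to 146 reads a library. The ages overlapped through adult replicates 1 and 3, and 4 adult libraries lay below every P10 library. The means were 32.8 CPM (SD 5.14, n = 5) and 27.2 CPM (SD 5.91, n = 6), a log2 change of -0.27 ± 0.19 (SE) that did not pass (edgeR adjusted p = 0.229). Scaled by totals alone, the change was -0.535 and passed (edgeR adjusted p = 0.0177).

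miR-26a-3p had 18, 5, 4, 5 and 5 reads at P10 and 2, 2, 1, 1, 2 and 2 in adults. At this depth it could not enter the tested set, and P10 replicate 1 alone held 18 of the 37 P10 reads. In a fit with no abundance filter, over 898 features, its log2 change was -1.34 ± 0.59 (SE) and did not pass (edgeR adjusted p = 0.104). The ratio of the 3p arms, miR-26b-3p over miR-26a-3p, ranged from 5.39 to 29.8 at P10 and from 20 to 51 in adults, a log2 difference of 0.89 (exact permutation p = 0.0823), or 1.10 without P10 replicate 6 (exact permutation, adjusted p = 0.0476) and 0.49 without P10 replicate 1 (exact permutation, adjusted p = 0.181). With a pseudocount of 1 it was 0.42.

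Arm use of miR-26b shifted toward the guide in adults. Of the reads from both miR-26b arms, the 3p arm made up 2.64%, 2.71%, 1.67%, 1.66% and 1.26% at P10 and 1.49%, 0.703%, 1.48%, 0.927%, 0.719% and 0.852% in adults. Only P10 replicate 6 lay inside the adult range. The number of 5p reads for each 3p read rose from 53.9 ± 17.7 (SD, n = 5) to 105.8 ± 33.2 (SD, n = 6). On the log2 scale with a prior count of 2 the ratio changed by 0.96 ± 0.27 (SE; limma over 145 precursors, adjusted p = 0.0169). This test is free of library scaling, and 25.5% of the precursors passed it, 20 toward 5p and 17 toward 3p, with a median change of 0.00476. Without P10 replicate 3 the change was 0.83 and just missed the threshold (limma adjusted p = 0.0524).

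miR-26a was more one-sided still. Its 3p arm made up 0.124%, 0.0617%, 0.0164%, 0.0214% and 0.0148% of the reads of both arms at P10, and between 0.00816% and 0.0212% in adults. Summed over libraries this was 37 of 104225 reads at P10, or 0.0355% (exact Clopper-Pearson 95% interval 0.0250% to 0.0489%), and 10 of 91075 in adults, or 0.0110% (0.00527% to 0.0202%). Without P10 replicate 1 the P10 sum was 19 of 89661, or 0.0212% (0.0128% to 0.0331%), and the intervals overlapped. These intervals cover counting error only, since reads without molecular identifiers are not independent molecules. In a fit that included precursors of any depth (338 of them, chosen after seeing the data), the log2 change of the miR-26a arm ratio was 1.07 ± 0.41 (SE; limma adjusted p = 0.0879). Ordered by 5p reads per 3p read over all libraries, miR-26a came 6th and miR-26b 42nd among 302 sense precursors with reads on both arms, at 4154 and 76.4.

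**Figure D4:**
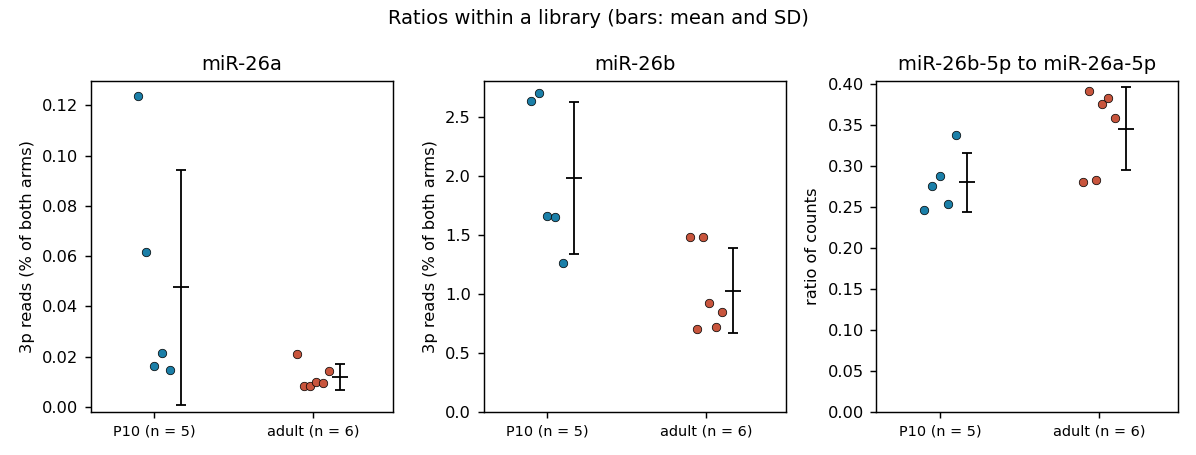
Share of 3p reads among both arms of miR-26a and of miR-26b (left and middle, %) and the ratio of miR-26b-5p to miR-26a-5p counts (right), by age. Points are libraries and bars the mean and SD; the 3p share of miR-26b is 1.26% to 2.71% at P10 and 0.703% to 1.49% in adults, with 1 P10 library inside the adult range.

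Profiles most like those of the guide arms were sought among 403 other tested sense features, by the root mean square difference of log2 CPM over the 11 libraries after each feature's own mean was removed. For miR-26a-5p the closest was a feature with an Ensembl transcript identifier and no miRNA name, ENSRNOT00000072394_-5p, at 0.0890, against a median of 0.526 over all features compared. Next came miR-186-5p (0.132), miR-421-3p (0.185), miR-148b-5p (0.189) and miR-330-5p (0.191). The paralog miR-26b-5p was at 0.237, behind 21 of those features. For miR-26b-5p the closest were miR-137-3p (0.158), miR-425-3p (0.206), miR-141-5p (0.218) and miR-330-5p (0.229); miR-26a-5p and then miR-30d-5p followed, both at 0.237.

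The unnamed feature is a 22-base 5p arm at chromosome 7, 70463575 to 70463596 (Rnor_5.0, plus strand), with its 3p arm starting 38 bases on. It was far more abundant than the chromosome 8 row, the 6th of all features by mean level, with means of 41610 CPM (SD 7460, n = 5) in pups and 49694 CPM (SD 3411, n = 6) in adults, and its log2 change of 0.26 ± 0.12 (SE) did not pass (edgeR adjusted p = 0.0905). Its counts were 6.16, 7.30, 6.84, 6.90 and 6.94 times those of miR-26a-5p at P10 and 6.38, 5.79, 6.36, 6.49, 6.28 and 6.48 times in adults. It had 5835 reads on the 5p arm for each on the 3p arm. That 3p arm fell from 10.6 ± 2.26 CPM to 4.12 ± 2.12 CPM (log2 change -1.35 ± 0.31, SE; edgeR adjusted p = 0.00281). RefSeq places Ctdsp2 on chromosome 7 as well, but no sequence of the unnamed feature was used here, so whether it is a copy of miR-26a was not tested and it was not counted as a member.

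**Figure D5:**
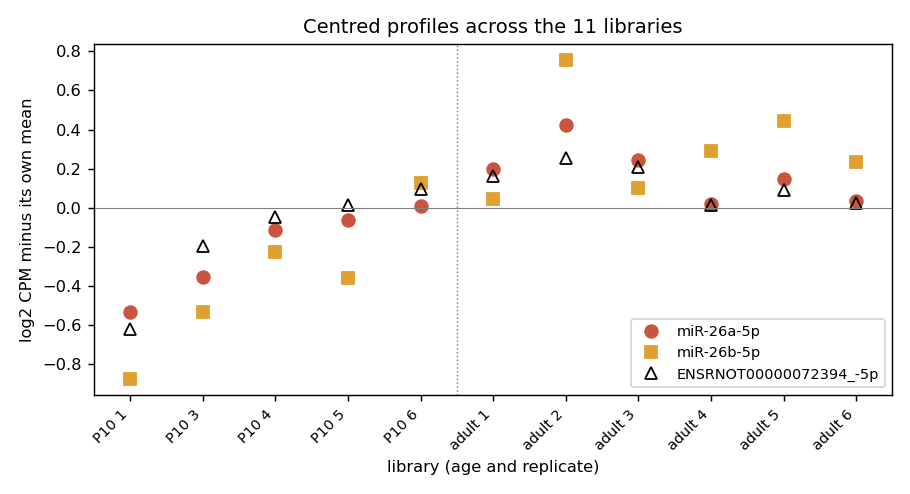
Log2 CPM minus its own mean over the 11 libraries (y axis) for both guide arms and the unnamed chromosome 7 feature, by library (x axis, P10 left of the dotted line). All 3 are lowest in P10 replicate 1 and highest in adult replicate 2, and the unnamed feature follows miR-26a-5p with a root mean square difference of 0.0890.

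Other miRNAs linked to insulin expression in beta cells were called in both directions. Known regulators of Ezh2 and Tet mRNAs, apart from miR-26, were called higher or did not pass. Of the insulin-linked miRNAs, apart from miR-26, 1 of 4 tested arms was higher, 1 was lower and 2 did not pass, with a median log2 change of 0.08. All 4 were arms of miR-24 or miR-148b, so other miRNAs with such a link are not covered. miR-24-3p rose 1.77-fold (edgeR adjusted p = 0.000773), its other arm miR-24-5p fell by 0.77 on the log2 scale, and miR-148b-3p was at 1364 and 1267 CPM (edgeR adjusted p = 0.398). Of known regulators of Ezh2 mRNA, miR-101b-3p passed as higher (log2 change 0.43, edgeR adjusted p = 0.0307), while miR-101a-3p (-0.04) and miR-138-1-5p (0.48) did not pass. Of known regulators of Tet mRNAs, 4 of 5 tested arms were higher, with a median log2 change of 1.39. All 5 were arms of miR-22 or miR-29b, so the count does not stand for as many separate regulators. Of the higher arms, miR-29b1-3p was rare, at a mean of 7.87 CPM in adults. At P10 it lay below miR-26a-3p, which missed the abundance filter, so its entry into the test rested on the adult libraries. The higher arm miR-22-5p was rare as well, at means of 4.37 CPM at P10 and 9.66 CPM in adults. Among the higher arms, miR-22-3p rose 2.62-fold (edgeR adjusted p = 4.73e-07) and miR-29b2-3p 4.40-fold (edgeR adjusted p = 1.13e-05), both past the changes of miR-26a-5p and miR-26b-5p. The background of these list counts is 21.2% higher and 29.5% lower over all tested features, 50.8% in either direction, with a median log2 change of -0.11.

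Among broadly expressed miRNAs, the class to which miR-26 belongs, 2 of 11 tested arms were higher and 9 did not pass (median log2 change 0.16). Both higher arms came from miR-423. The list held miR-30c-1 but not miR-30c2, whose 3p arm was higher (0.55, edgeR adjusted p = 0.0174) and whose 5p arm did not pass (edgeR adjusted p = 0.0907). miR-16-5p, at a level close to that of miR-26a-5p, had means of 6864 CPM (SD 2389, n = 5) in pups and 7674 CPM (SD 702, n = 6) in adults (edgeR adjusted p = 0.507), and let-7a-5p 2466 and 2579 CPM (edgeR adjusted p = 0.566). In the miR-30 family 4 of 10 arms were higher and 6 did not pass (median 0.35), and in the let-7 family 4 of 15 were higher, 1 was lower and 10 did not pass (median 0.23). The background of these counts is again 21.2% higher and 29.5% lower over all tested features, and the counts were not tested against it. The abundant miR-30d-5p and miR-30a-5p, at log2 changes of 0.70 and 0.53, bracketed the 0.67 of miR-26b-5p, and let-7c-1-5p (0.24) and let-7f-5p (0.81) lay on either side of both guide arms. Whether miR-26 differed from these miRNAs was not tested.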

How the data were processed

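Per the labels' protocols, total islet RNA was extracted with Trizol, and small RNA libraries were built by adapter ligation with an Illumina TruSeq kit, with PCR and size selection. The deposited values are read counts, not normalized, for each mature arm and its Rnor_5.0 position, which the file headers name. The submitters' processing notes list rn5, DESeq and edgeR without their use. The aligner, and the rule for reads of multi-copy miRNAs, are not given in the sources used, so such counts are uncertain. The table had 950 rows; names with several rows entered once, with the highest count per library. The p-values measure the spread between libraries.

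Counts were analysed in R 4.3.3 with edgeR 4.0.16 (filterByExpr, TMM, robust quasi-likelihood fit of age over 5 P10 and 6 adult libraries, Benjamini-Hochberg over 457 features, threshold 0.05). Standard errors were derived from the test statistic. Arm ratios were fitted with limma 3.58.1 (prior count 2) and paralog ratios tested by exact permutation. The scripts were tested on simulated data, where the age test called 42% of features with a true 1.5-fold change and 85.7% at 2-fold. A change of 1.5-fold can therefore go uncalled. Alternatives covered scaling, filter, limma-voom, DESeq2 1.42.0, summing rows of one name, a replicate block (without adult replicate 2) and dropping libraries one at a time. Members and lists were chosen with earlier results of these data known. The text names all miR-26 rows, the 2 most abundant members of each list of miRNA families and known regulators, and the 5 closest profiles per guide arm; cell type markers and other names were chosen after their values were seen.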

Additional observations from a re-analysis of the deposited data

Results flagged for a closer look

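Among 18 groups of library values (4 arm levels, the family share, 2 paralog ratios and 2 arm shares, at 2 ages), 2 had a library far from the rest; chance alone gives about 1 in 20 groups. miR-26a-3p in adult replicate 1 stood at 1.69 CPM, against 1.02 CPM in the next library, which is 2 reads in each. miR-26b-3p in P10 replicate 3 stood at 41.7 CPM, against 32.0 CPM in the next P10 library. These libraries also held the largest mesenchymal sums of their ages, 58305 and 61145 CPM, made up mostly of miR-143-3p. The part of that in either value was not tested.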

How the results depend on the processing

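Both guide arms stayed higher in adults under every alternative run. miR-26a-5p missed the threshold with library totals alone (0.12) and with the replicate number as a block (0.34, edgeR adjusted p = 0.0675), and miR-26b-5p with library totals alone (0.42). miR-26b-3p passed only with library totals alone (-0.535). That scaling also gave 54 features higher in adults in place of 97. Over all alternatives other than single libraries left out, the adjusted p ran from 0.000602 to 0.457 for miR-26a-5p, from 0.000366 to 0.0716 for miR-26b-5p and from 0.0177 to 0.763 for miR-26b-3p. The replicate block (0.59 for miR-26b-5p) changed no other call among the arms and the miR-26b arm ratio. It used only replicate numbers present at both ages, so adult replicate 2 was left out as well. Without that library and with no block, the log2 changes were 0.32 for miR-26a-5p (edgeR adjusted p = 0.0386) and 0.57 for miR-26b-5p (edgeR adjusted p = 0.0134). After the mean of each age was removed from every tested feature, same-numbered libraries of the 2 ages correlated between -0.21 and 0.20. The numbers were therefore not taken to pair the libraries. Leaving out each library gave log2 changes of 0.31 to 0.45 for miR-26a-5p, 0.56 to 0.81 for miR-26b-5p and -0.34 to -0.19 for miR-26b-3p, with every call as before. The miR-26b arm ratio ranged from 0.83 to 1.10, the 5p paralog ratio from 0.25 to 0.37 and the 3p paralog ratio from 0.49 to 1.11. The family's share of counts was 0.121 percentage points higher in adults, or 0.0673 without P10 replicate 3 and 0.0663 without adult replicate 2. The causes were not tested. Depth limits the 3p arms, above all miR-26a-3p.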
